A study of Mus musculus with 11 samples.

Results

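The genes described here are 10 acute-phase genes of the mouse liver, namely the 4 serum amyloid A genes (Saa1 to Saa4), the 3 orosomucoid genes (Orm1 to Orm3), the lipocalin gene Lcn2, the haptoglobin gene Hp and the cytokine feedback gene Socs3. They were picked by symbol out of 36788 gene identifiers, and all 10 were among the 12733 genes with enough reads to be tested. The livers came from female mice over 12 weeks of age, labelled as wild-type C57BL/6. In a passage on its transgenic lines, the study's methods give a mixed background that includes C57BL/6J for all mice. Every animal had been ovariectomized and fed a high-fat diet. The FSH group (5 livers, numbered 1, 2, 3, 4 and 6) was injected daily with 30 IU/kg of follicle-stimulating hormone, and the control group (6 livers) received saline. Both groups lacked ovaries and were on the diet, so the comparison is of FSH against saline in that state and holds no intact or lean animal. Each liver gave 1 library, with between 10801891 and 19909327 reads counted on genes. Values are in CPM, that is, reads of a gene per 1000000 counted reads of its library. The 10 hepatocyte markers checked summed to at least 113655 CPM in each saline liver and at least 117345 CPM in each FSH liver.

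The acute-phase response is the change in liver secretion that follows infection, injury or metabolic stress. Interleukin-6 acts on hepatocytes through its receptor and the factor STAT3, interleukin-1 and bacterial products act through NF-kappaB, and C/EBP factors and glucocorticoids add to both. Serum amyloid A proteins ride on high-density lipoprotein, orosomucoids carry small lipophilic molecules, lipocalin 2 withholds iron from bacteria by binding their siderophores, and haptoglobin captures free hemoglobin. SOCS3 is made on STAT3 signaling and shuts the interleukin-6 receptor complex down again.

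The SAA genes lie side by side on chromosome 7 of GRCm38 (mm10), the build named in the submitters' processing notes. Saa3 runs from 46711998 to 46715700, Saa4 from 46727998 to 46732603 and Saa1 from 46740497 to 46742980 on the minus strand. Saa2 faces away from Saa1 on the plus strand, from 46751790 to 46754313. The orosomucoid genes stand in a row on the plus strand of chromosome 4, with Orm1 from 63344560 to 63348163, Orm3 from 63356162 to 63359511 and Orm2 from 63362449 to 63365878. Lcn2 lies on chromosome 2 (32384633 to 32388252), Hp on chromosome 8 (109575128 to 109579172) and Socs3 on chromosome 11 (117966079 to 117970047), all on the minus strand. None of the 10 overlaps another annotated gene in GENCODE M21.

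Stretches upstream of the RefSeq transcription start on GRCm38.p6 are shown because they hold matches to motifs of the factors named above. They also let SAA and orosomucoid genes be compared with their neighbors. Windows of 250 bases before to 50 bases after that start were found for 8 of the 10 genes, all but Orm1 and Hp. The stretches are a selection and do not hold every match found, and none is shown for Saa4. Capitals mark matches to a C/EBP motif (TTNNGNAA), to the kappaB consensus or, in Socs3, to a STAT motif (TTCNNNGAA), each searched on both strands. The kappaB match of Saa1 runs into a second C/EBP match, so the capitals there cover both. The first pair of stretches lies at chr7:46743052-46743172 (minus strand) and chr7:46751640-46751760 (plus strand).
Saa1: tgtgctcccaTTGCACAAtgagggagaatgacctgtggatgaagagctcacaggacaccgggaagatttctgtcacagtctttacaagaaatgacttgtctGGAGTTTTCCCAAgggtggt
Saa2: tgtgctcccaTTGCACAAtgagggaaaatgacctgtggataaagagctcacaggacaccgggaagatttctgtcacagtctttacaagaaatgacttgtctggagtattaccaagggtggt
Saa3: gtaagtgggaTTATGCAAgatcaaacag
Orm2: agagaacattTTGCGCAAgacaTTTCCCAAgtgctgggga
Orm3: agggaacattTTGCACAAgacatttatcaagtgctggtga
Lcn2: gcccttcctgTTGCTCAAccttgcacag
Socs3: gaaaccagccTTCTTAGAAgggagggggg

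The other stretches lie at chr7:46715758-46715785 (Saa3, minus), chr4:63362319-63362358 (Orm2, plus), chr4:63356027-63356066 (Orm3, plus), chr2:32387938-32387965 (Lcn2, minus) and chr11:117969502-117969530 (Socs3, minus). Those of Lcn2 and Socs3 fall inside the GENCODE gene spans given above, since the RefSeq starts of these genes lie downstream of the GENCODE 5′ ends. Of the 121 bases shown for Saa1 and Saa2, 117 are identical. The 4 differences, counted from 1 at the 5′ end with the Saa1 base first, are G26A, G41A, T107A and C110A, and the last of them fall in the capitals of Saa1. Over the 250 bases before the start, Saa1 and Saa2 were 95.6% identical, whereas Saa1 was 59.4% identical to Saa3 and 55.3% to Saa4. Orm2 and Orm3 were 89.0% identical there. A C/EBP match was present in 7 of the 8 windows and in 40.7% of all 32851 promoter windows. The kappaB consensus was matched in Saa1 and Lcn2, and in 11.2% of all windows. The STAT motif was matched in Socs3 alone of these genes and in 8.30% of all windows. The palindromic consensus of the glucocorticoid response element was matched in 0 of the 8 windows and in 0.475% of all. These matches describe letters only.

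To ask how FSH treatment bore on the acute-phase program, log2(CPM + 0.5) was compared between the groups over all genes with limma (Benjamini-Hochberg adjustment). With the thresholds of the study, which ask for an adjusted p below 0.05 and a change of more than 1 on the log2 scale, 3 of the 10 genes were lower with FSH and 0 were higher. They were Saa1, Saa2 and Lcn2. The same thresholds were passed by 1.83% of all genes tested in either direction and by 0.942% as lower. On the adjusted p alone, Saa4 and Hp were lower as well, which made 5 of 10 lower, against 4.41% of all genes, and 0 of 10 higher, against 6.19%. The values of the groups did not overlap for 5 of the 10 (Saa1, Saa2, Saa3, Lcn2 and Hp, each lower with FSH), against 2.72% of all genes lower and 6.67% in either direction. The median log2 fold change of the 10 was -0.68, and that of all genes tested was 0.02. FSH liver 2 stood apart as the lowest of all 11 livers for 7 of these genes, so values without it are given where they matter. Without it, 2 genes passed both thresholds.

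**Figure D1:**
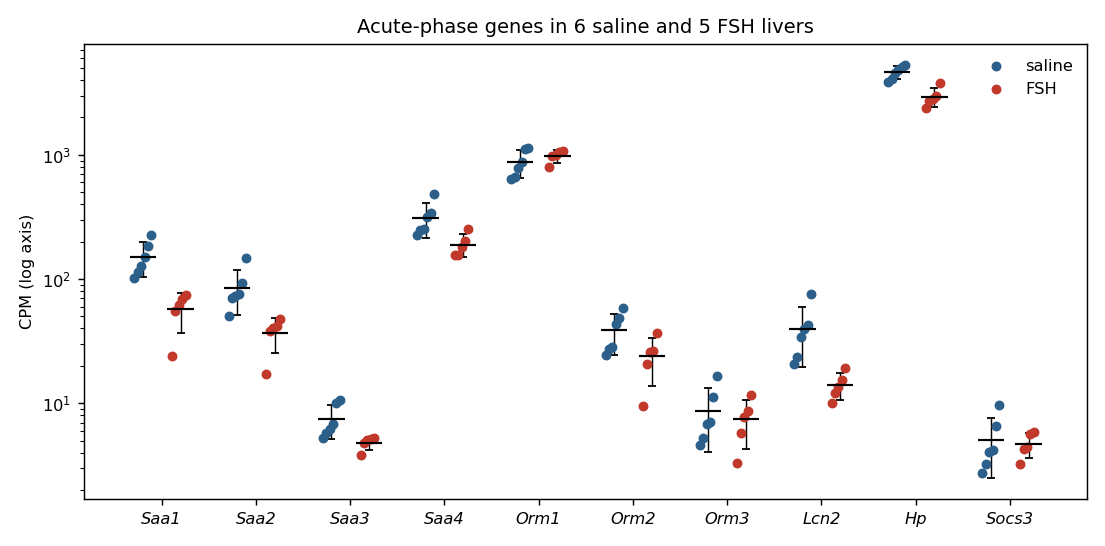
CPM on a log axis for the 10 acute-phase genes in each saline liver (blue, 6) and FSH liver (red, 5), with the mean (bar) and SD (whiskers). Saa1, Saa2, Saa3, Lcn2 and Hp were lower in every FSH liver than in every saline liver, whereas the points of Orm1, Orm3 and Socs3 intermingled.

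Saa1 and Saa2 encode the acute-phase serum amyloid A proteins that the liver secretes. Saa1 was read at 61.3, 24.0, 55.3, 69.2 and 75.0 CPM in FSH livers 1, 2, 3, 4 and 6. In saline livers it ranged from 101.2 to 228.1 CPM with a median of 138.9. The highest FSH liver was thus below the lowest saline liver. FSH livers averaged 56.95 ± 19.9 CPM (SD, n = 5) and saline livers 151.1 ± 48.1 CPM (SD, n = 6). This gave a log2 fold change of -1.44 with a standard error of 0.27 (limma adjusted p = 0.00314), that is, 2.72-fold lower with a 95% interval of 1.83 to 4.03. An exact permutation test over the 462 splits of the livers into 5 and 6 gave p = 0.00216 (two-sided), the smallest it can give.

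Saa2 was read at 40.6, 17.2, 38.3, 41.9 and 47.5 CPM in the FSH livers in the same order. The saline livers held 50.5 to 148.0 CPM with a median of 74.7. Here too the groups were apart, with little distance between the highest FSH liver and the lowest saline liver. Saa2 changed by -1.19 on the log2 scale with a standard error of 0.26 (limma adjusted p = 0.0101, exact permutation p = 0.00433). Without FSH liver 2 it was -0.93 (limma adjusted p = 0.0142), short of the fold threshold, and that of Saa1 was -1.16. The transcripts of Saa1 and Saa2 are 94.4% identical, but no window of 100 bases, the read length, is shared in full between them.

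Saa4 encodes the constitutive serum amyloid A protein, which changes little in the acute phase. It was read at 156.0, 156.1, 180.6, 201.6 and 252.8 CPM in the FSH livers and at 225.1 to 484.6 CPM (median 284.1) in the saline livers. FSH liver 6 reached into the saline range and the other 4 stayed below it. Saa4 changed by -0.69 on the log2 scale with a standard error of 0.18 (limma adjusted p = 0.0248, exact permutation p = 0.0130). Leaving out FSH liver 1, 2 or 3 raised its limma adjusted p above 0.05 (to 0.0742, 0.0597 and 0.0574), as did testing without a filter on low genes (0.0502). Within livers, the ratio of Saa1 to Saa4 reads ranged from 0.154 to 0.393 with FSH and from 0.296 to 0.726 with saline (exact permutation p = 0.0281, a ratio chosen after the values were seen).

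Summed over the 4 genes, SAA reads came to 201.1 to 380.4 CPM in FSH livers and 418.1 to 748.0 CPM in saline livers, without overlap.

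Saa3, the form that macrophages and adipocytes also make, was scarce. FSH livers held 4.77, 3.84, 5.15, 5.23 and 5.08 CPM, within a narrow band, and saline livers held 5.24 to 10.7 CPM with a median of 6.50. The highest FSH liver and the lowest saline liver almost touched. Its log2 fold change of -0.54 had a 95% interval of -0.91 to -0.17 and a limma adjusted p of 0.0619, so Saa3 did not pass the test. It passed in 4 of 23 alternatives, which were limma with array weights (adjusted p = 0.0406), limma without saline liver 2 (0.0348), and edgeR (0.0470) and DESeq2 (0.0175) on recovered reads, both added after the data were seen. With voom on the same reads it did not pass (adjusted p = 0.0746). Of the 13 Kupffer cell and macrophage markers, all detected, 13 had a log2 fold change below 0 (median -0.53), 7 had an unadjusted p under 0.05 (25.1% of all genes did), and 1, Cd68, passed the adjusted p threshold at -0.78 (limma adjusted p = 0.0118; 10.6% of all genes passed). C1qa (limma adjusted p = 0.0522) passed in DESeq2 (0.0236) and in 4 of the 11 fits that left out a liver. It also passed with the replicate number as a block (0.0248), although that number does not pair the livers. C1qb (limma adjusted p = 0.0733) passed in DESeq2 (0.0393) and without FSH liver 4 (0.0314). The summed level of the 13 markers was 210.0 to 525.4 CPM in FSH livers and 344.7 to 608.5 CPM in saline livers. Its part in the Saa3 values was not tested. In whole liver, fewer cells of a type and less RNA per cell cannot be told apart.

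Lcn2 is made by hepatocytes in the acute phase and is also stored in the granules of neutrophils. It was read at 15.4, 10.03, 12.1, 13.6 and 19.4 CPM in FSH livers 1, 2, 3, 4 and 6. Saline livers ranged more widely, from 20.8 to 76.4 CPM with a median of 36.9, and saline liver 4 was the highest. All FSH livers were below all saline livers. The means were 14.1 ± 3.55 CPM (SD, n = 5) and 39.5 ± 19.97 CPM (SD, n = 6), respectively. Lcn2 changed by -1.36 on the log2 scale with a standard error of 0.27 (limma adjusted p = 0.00460), or 2.56-fold lower with a 95% interval of 1.73 to 3.80 (exact permutation p = 0.00433). Over the 11 fits that each left out a liver, it stayed between -1.51 and -1.14. The 13 neutrophil markers summed to 1.49 to 4.84 CPM in FSH livers and 1.25 to 6.20 CPM in saline livers, Ly6g was at 0 in every library, and S100a9 averaged 0.65 and 0.77 CPM. How much of the Lcn2 RNA came from neutrophils was not tested.

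Hp, haptoglobin, was the most abundant of the 10. FSH livers held 2985, 2370, 2708, 2839 and 3772 CPM, and saline livers held 3878 to 5322 CPM with a median of 4679. The groups did not overlap, although FSH liver 6 came close to saline liver 2. The group means were 2935 ± 520.5 CPM (SD, n = 5) and 4617 ± 566 CPM (SD, n = 6). Hp changed by -0.66 on the log2 scale with a standard error of 0.13 (limma adjusted p = 0.00386, exact permutation p = 0.00216), or 1.58-fold lower with a 95% interval of 1.31 to 1.91. It passed the adjusted p threshold in 23 of 23 alternatives and never the fold threshold. Of the 5 erythroid genes, which include hemoglobin chains, 0 passed the adjusted p threshold in limma, and 0 had an unadjusted p under 0.05.

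Of the 3 orosomucoids, or alpha-1-acid glycoproteins, 0 passed the adjusted p threshold in limma, and differences between them and the SAA genes were not tested. Orm1 was read at 988.9, 792.5, 1076, 1052 and 978.7 CPM in FSH livers and at 643.0 to 1145 CPM (median 829.6) in saline livers. The FSH values fell inside the saline range. Its log2 fold change was 0.19 (95% interval -0.13 to 0.52, limma adjusted p = 0.481), so a fall of the size seen for Saa1 lies outside the interval. Orm2 was at 25.9, 9.44, 20.6, 37.0 and 26.2 CPM with FSH and at 24.5 to 59.0 CPM (median 35.9) with saline. The groups overlapped. On the log2 scale the change of Orm2 was -0.73 (95% interval -1.37 to -0.09, limma adjusted p = 0.137), and without FSH liver 2 it was -0.44 (limma adjusted p = 0.288). Orm3 was low in both groups, at 3.32 to 11.7 CPM with FSH and 4.60 to 16.7 CPM with saline, with a log2 fold change of -0.17 (95% interval -0.85 to 0.51, limma adjusted p = 0.802). Its sign turned without FSH liver 2 (0.07) or saline liver 4 (0.04).

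Orm1 supplied 95.8% to 98.4% of the orosomucoid reads in FSH livers and 94.1% to 95.9% in saline livers. On average the share was 96.97% ± 1.01 (SD, n = 5) and 94.98% ± 0.71 (SD, n = 6). The exact permutation test gave p = 0.00433, but the share was chosen after the values were seen, so this p cannot count as a test of it. FSH liver 4 (95.84%) was just below saline liver 1 (95.86%), and FSH liver 2 held the highest share (98.4%). The transcripts of Orm1 and Orm2 are 90.97% identical and share 6.95% of their windows of 100 bases, so some reads could have been assigned to either.

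Socs3, the feedback inhibitor of STAT3 signaling, was the lowest of the 10 genes per kilobase of transcript, but its level was above that of 29.8% of all genes tested. FSH livers held 5.63, 5.90, 4.25, 3.23 and 4.47 CPM and saline livers held 2.74 to 9.62 CPM with a median of 4.15. FSH values lay within the saline range, in which saline livers 3 and 4 were the highest. Socs3 changed by -0.02 on the log2 scale (95% interval -0.56 to 0.53, limma adjusted p = 0.980, exact permutation p = 0.959). Its sign turned in 4 of the 11 fits that left out a liver, so the data gave no direction for Socs3.

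Levels of different genes were compared per kilobase of the first GENCODE transcript. In saline livers the order was Hp (3433 CPM per kilobase), Orm1 (1126), Saa1 (248.2), Saa4 (148.7), Saa2 (140.7), Orm2 (49.7), Lcn2 (43.2), Saa3 (13.4), Orm3 (11.1) and Socs3 (1.99). Saa4 was above Saa2 in only 2 of 6 livers, Orm2 above Lcn2 in 4 of 6 and Saa3 above Orm3 in 5 of 6, so these neighbors did not differ beyond their spread. Per kilobase, Saa1 was above Saa4 in 6 of 6 saline livers. That order depends on the transcript lengths used, which were 609 bases for Saa1, 606 for Saa2 and 2094 for Saa4. In CPM, Saa4 was above Saa1 in every liver, with Saa1 to Saa4 ratios of 0.296 to 0.726 in saline livers. In FSH livers the levels per kilobase of Saa1 (93.5) and Saa4 (90.5) were close, with Saa1 above in 4 of 5. Saa4 was then above Saa2 (61.2) in 5 of 5.

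**Figure D2:**
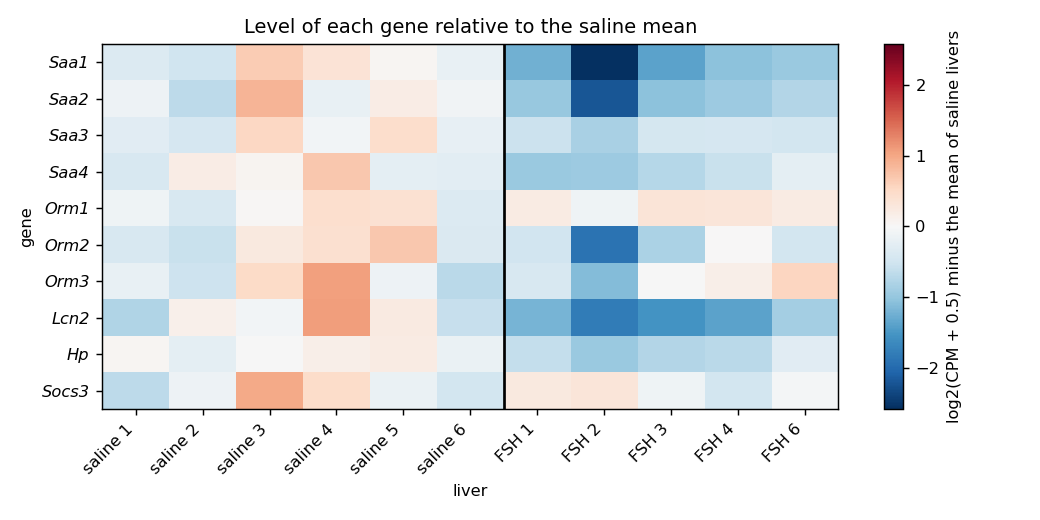
Each gene's log2(CPM + 0.5) minus its mean over the saline livers, by liver (columns) and gene (rows); red is above and blue below the saline mean. FSH liver 2 is the bluest column for Saa1, Saa2, Orm2 and Lcn2, and the highest saline liver differs between genes.

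The livers did not rank alike for all genes. Saline liver 3 was the highest of the 11 for Saa1, Saa2, Saa3 and Socs3. Saline liver 4 was the highest for Saa4, Orm1, Orm3 and Lcn2, and saline liver 5 for Orm2 and Hp. Across the 6 saline livers, 45 pairs of these genes were correlated on log2(CPM + 0.5), and r was above 0 for 42 of them. After Benjamini-Hochberg adjustment over the 45 pairs, 0 passed in the exact permutation test (6 at an unadjusted p under 0.05). The pairs with the smallest p were Saa2 with Saa3 (r = 0.89, exact permutation p = 0.00694, adjusted p = 0.212; rho = 0.83, exact permutation p = 0.0583, adjusted p = 0.292) and Orm1 with Orm2 (r = 0.93, exact permutation p = 0.0111, adjusted p = 0.212; rho = 0.89, exact permutation p = 0.0333, adjusted p = 0.292). Without the 2 livers farthest from the median of the first gene of the pair, r was 0.89 and 0.82. For Saa1 with Saa2, r was 0.82 (exact permutation p = 0.0361, adjusted p = 0.271) and rho was 0.66 (exact permutation p = 0.175, adjusted p = 0.414). It was 0.02 for r without the 2 livers farthest from the Saa1 median. So few livers over a narrowed range cannot decide what that relation rested on.

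Over all 11 livers, which mixes in the group difference, the genes most like Saa1 were Cyp2a12, a cytochrome P450 (Pearson r = 0.97), Saa2 (0.96) and Ddit3, a stress-response transcription factor (0.96). Those most like Lcn2 were Prss53 (0.96), the cytochrome P450 Cyp3a13 (0.96) and the mitochondrial carrier Slc25a33 (0.94). For Orm2 they were Gm17084 (0.97), Abi3 (0.94) and the receptor gene Clec1b (0.94), and for Socs3 they were Mup12 (0.89), Ddx41 (0.81) and Zfp3 (0.78). These were picked as the highest of 12733 genes and carry no test.

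Other genes that the acute phase raises were read from a list of 26, of which 25 could be tested. At an adjusted p under 0.05, 8 were lower with FSH (4.41% of all genes were) and 1 was higher (6.19% of all genes), 16 did not pass, and the median log2 fold change was -0.34. Both thresholds were passed by 2 lower genes and 1 higher gene, against 1.83% of all genes in either direction. Lbp, whose protein hands bacterial lipopolysaccharide to its receptor, averaged 64.5 ± 18.0 CPM (SD, n = 5) in FSH livers and 128.3 ± 23.8 CPM (SD, n = 6) in saline livers. Its change was -1.01 on the log2 scale (limma adjusted p = 0.00167). It came out short of the fold threshold in 5 of the 11 fits that left out a liver, at -0.89 without FSH liver 2. With the replicate number as a block it was also short (-0.99). Mt2, a zinc-binding metallothionein that glucocorticoids also raise, was at -2.29 (limma adjusted p = 0.0382). Its saline livers spread from 22.9 to 553.6 CPM, overlapping the FSH range of 8.46 to 31.8 CPM, and its adjusted p was above 0.05 in 7 of the 11 fits that left out a liver, without the filter on low genes (0.0789) and with no trend (0.0586). Hamp2, a copy of the hepcidin gene, went the other way, with 1416 ± 434 CPM (SD, n = 5) in FSH livers and 646.1 ± 162 CPM (SD, n = 6) in saline livers. Its change was 1.09 on the log2 scale (limma adjusted p = 0.00704), although FSH liver 2 held only 675.5 CPM. It came out just under the fold threshold without FSH liver 3 or saline liver 3 (0.99 in both fits). Hamp2 and Hamp are near copies, and Hamp itself, named after its values were seen, was at 0.09 (limma adjusted p = 0.864).

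Named after their values were seen, the 6 other lower genes on that list were Lrg1 (log2 fold change -0.99), a glycoprotein induced by interleukin-6, Apcs (-0.57), which encodes serum amyloid P, the fibrinogen chains Fga (-0.45), Fgb (-0.38) and Fgg (-0.49), and Itih3 (-0.42). Fga, Fgb, Fgg and Itih3, 4 of the 25, did not overlap between the groups and were lower, against 2.72% of all genes. Fgg, for example, averaged 2849 ± 178 CPM (SD, n = 5) in FSH livers and 4027 ± 467 CPM (SD, n = 6) in saline livers. The complement genes C3, C4b and Cfb and the genes Cp and Hpx, named in the same way, had log2 fold changes between -0.39 and -0.12 and did not pass.

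**Figure D3:**
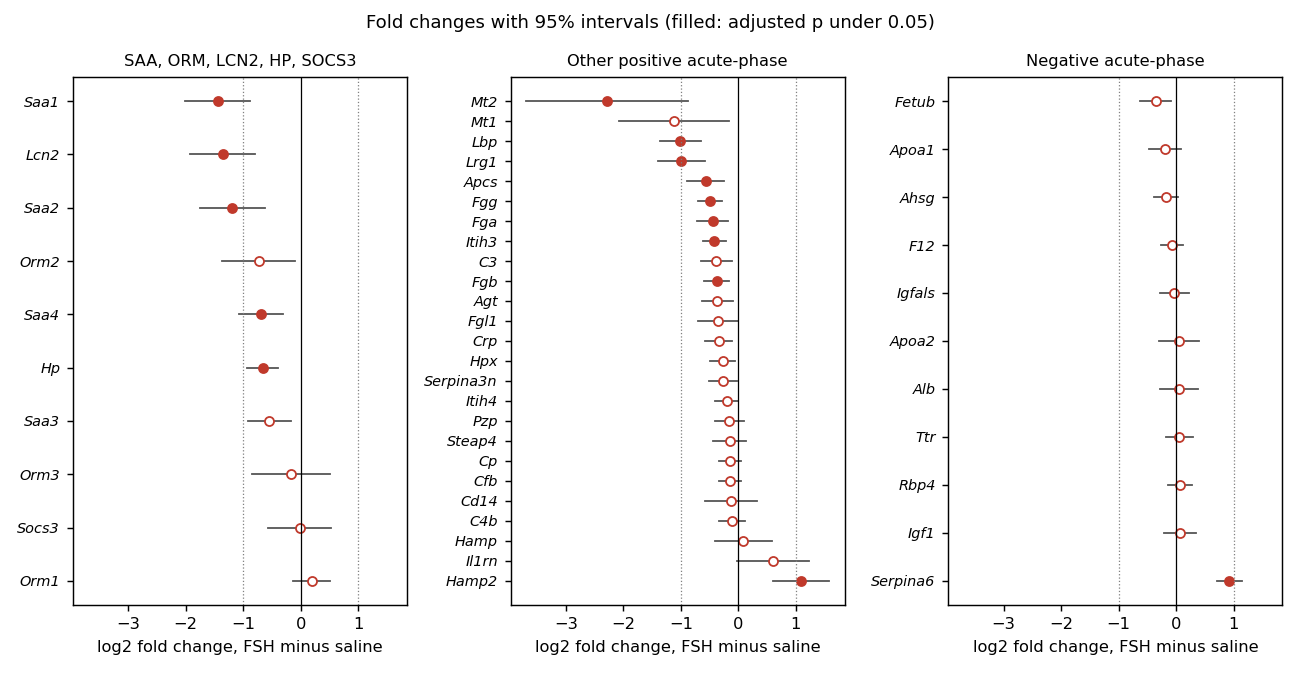
Log2 fold change of FSH minus saline (points) with limma's 95% interval (lines) for the 10 acute-phase genes, 25 other positive and 11 negative acute-phase genes; filled points passed an adjusted p of 0.05 and dotted lines mark the fold threshold. Filled points lie below 0 except those of Hamp2 and Serpina6.

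Of the 11 tested genes that the acute phase lowers, 0 passed both thresholds in limma, edgeR and DESeq2, 2 had an unadjusted p under 0.05 (25.1% of all genes did) and 1 passed the adjusted p alone (10.6% of all genes did), with a median log2 fold change of 0.05. That gene was Serpina6, which encodes the glucocorticoid carrier of plasma. FSH livers averaged 987.0 ± 109.5 CPM (SD, n = 5) and saline livers 522.3 ± 63.2 CPM (SD, n = 6), with no overlap, and its log2 fold change was 0.92 (limma adjusted p = 5.99e-05). The next by p were Fetub (-0.36, limma adjusted p = 0.0818), which passed as lower without FSH liver 6 (0.0423) or saline liver 2 (0.0437), and Ahsg (-0.17, limma adjusted p = 0.305), the fetuins.

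Among the upstream genes, 14 of the 19 listed for the interleukin-6 family and JAK-STAT3 were tested, and 1 passed the adjusted p threshold (10.6% of all genes did) and the fold threshold as well. That was Il6ra, the interleukin-6 receptor, at 13.2 ± 5.89 CPM (SD, n = 5) in FSH livers and 27.9 ± 11.5 CPM (SD, n = 6) in saline livers (log2 fold change -1.05, limma adjusted p = 0.0350). The groups overlapped, since FSH liver 6 (21.0 CPM) and saline liver 5 (14.3 CPM) crossed. Over the 11 fits that left out a liver its log2 fold change lay between -1.24 and -0.86, and the limma adjusted p was above 0.05 in 7 of them, at most 0.0943. It was also above 0.05 without the filter on low genes (0.0706) and with no trend (0.0525).

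Of the 33 genes for interleukin-1, TNF, Toll-like receptors and NF-kappaB, 31 were tested, 2 were lower and 1 was higher on the adjusted p, a share near the 10.6% of all genes that passed it, and the median log2 fold change was -0.05. Beside Il1r1 these were Ikbkg (-0.29), a regulatory subunit of the NF-kappaB kinase, and the cytokine gene Il18 (0.55), both named after their values were seen. Il1r1, the interleukin-1 receptor, was at 14.8, 18.2, 12.2, 14.3 and 19.4 CPM in FSH livers and at 22.8 to 88.6 CPM in saline livers. The groups did not overlap, and saline livers 4 (88.6 CPM) and 2 (56.4 CPM) were far above the other saline livers. Its log2 fold change was -1.20 (limma adjusted p = 0.0164) and -0.95 without saline liver 4 (limma adjusted p = 0.0110).

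Of 12 transcription factors that act on acute-phase promoters, 0 passed both thresholds in limma, 4 had an unadjusted p under 0.05 (25.1% of all genes did) and 1 passed the adjusted p alone (10.6% of all genes did), shares near those of all genes. This was Hnf4a, a hepatocyte nuclear factor, with a log2 change of -0.44 (limma adjusted p = 0.0369). Its adjusted p was above 0.05 in 7 of the 11 fits that left out a liver, without the filter on low genes (0.0693) and with no trend (0.0589). Cebpd, the C/EBP member that cytokines raise, was at 3.97 to 9.11 CPM with FSH and 7.59 to 19.0 CPM with saline (-0.70, limma adjusted p = 0.0817). It passed with array weights (0.0496), without saline liver 6 (0.0432) and in DESeq2 (0.0196). Nr3c1, the glucocorticoid receptor, was at 0.21 (limma adjusted p = 0.166). Of 8 tested receptors and partners of the proteins, 1 passed the adjusted p (10.6% of all genes did) and 1 had an unadjusted p under 0.05 (25.1% of all genes did). This was Cd36, a scavenger receptor (-0.79, limma adjusted p = 0.0346). Its adjusted p was above 0.05 in 7 of the 11 fits that left out a liver, without the filter (0.0680) and with no trend (0.0538). Over those 11 fits its log2 fold change stayed between -0.92 and -0.65. The haptoglobin-hemoglobin receptor gene Cd163 was at -0.56 (limma adjusted p = 0.201) and the formyl peptide receptor gene Fpr1 at -0.38 (limma adjusted p = 0.393).

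**Figure D4:**
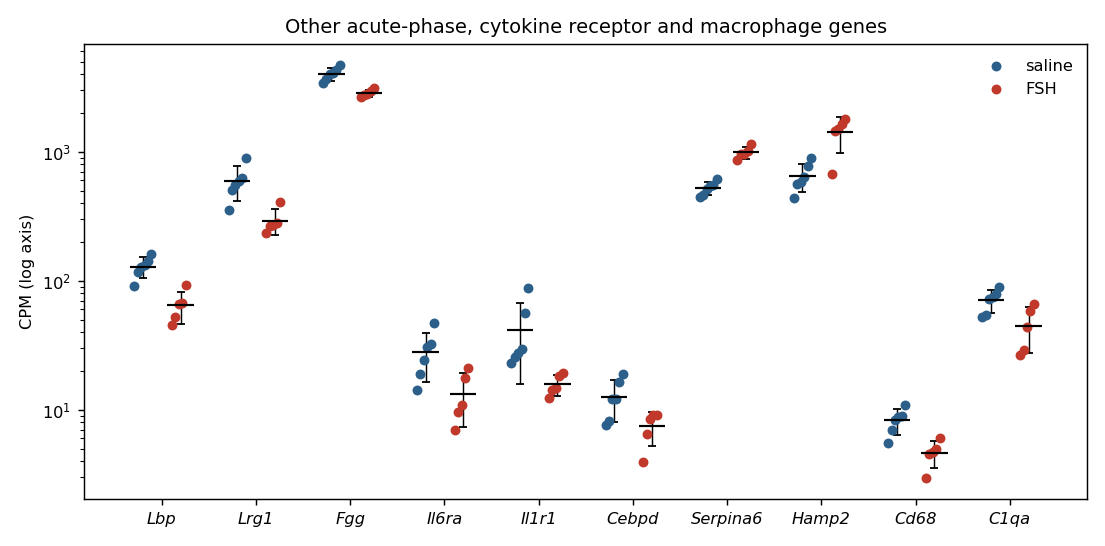
CPM on a log axis in each saline (blue, 6) and FSH liver (red, 5), with mean and SD, for other acute-phase genes (Lbp, Lrg1, Fgg, Serpina6, Hamp2), cytokine receptors (Il6ra, Il1r1), Cebpd and the macrophage markers Cd68 and C1qa. Fgg, Il1r1 and Serpina6 did not overlap between the groups, Serpina6 and Hamp2 had the higher mean with FSH, and FSH liver 2 is the low Hamp2 point.

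Marker lists of other cell types were followed beside these genes. In the adipocyte list 0 of 5 genes could be tested, the sum was at most 0.525 CPM in any liver, and Lep and Retn were at 0 throughout. On the adjusted p, 0 of 4 lymphocyte, 0 of 7 stellate cell and fibroblast, 0 of 2 neutrophil and 0 of 5 erythroid genes tested passed in limma, and 0 in each of these lists had an unadjusted p under 0.05. The closest by p in each were Cd4, Col1a2, S100a9 and Alas2. Log2 fold changes were below 0 for 7 of 7 stellate cell and fibroblast and 5 of 6 endothelial genes (medians -0.36 and -0.18). Single genes passed in 3 further lists, against 10.6% of all genes, and an unadjusted p under 0.05 was seen for 2 of 6 endothelial, 2 of 5 cholangiocyte and 2 of 10 hepatocyte genes, against 25.1% of all genes. In the endothelial list 1 of 6 passed (Lyve1, -0.63, limma adjusted p = 0.0121), and Stab2 (-0.32, limma adjusted p = 0.133) passed without FSH liver 4 (0.0487). In the cholangiocyte list 1 of 5 passed (Krt7, 0.69, limma adjusted p = 0.00731, with means of 1.86 CPM with FSH and 0.97 CPM with saline). Sox9 of the same list went the other way at -0.50 (limma adjusted p = 0.0545) and passed with TMM scaling (0.0443), median-ratio scaling (0.0449), in DESeq2 (0.0421) and without FSH liver 1 (0.0299) or saline liver 4 (0.0455). Of the 10 hepatocyte markers 1 passed, which was Hnf4a.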

How the data were processed

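The sources differ on how RNA was obtained. The sample labels name a papain digestion of whole liver, whereas the design text and the study's methods name a column kit (RNeasy Plus) on liver tissue and no digestion. The effect of a digestion step on these transcripts was not tested. RNA of high integrity was turned into libraries with an NEBNext Ultra kit and read as paired ends of 100 bases on an Illumina HiSeq. The submitters' processing notes name FastQC, cutadapt, Trim Galore, STAR and RSEM with the build mm10. The annotation release and use of strand are not given in the sources used here. The values the authors deposited are CPM, each library summing to 1000000, unfiltered and with no further scaling between libraries. All of them (100%, within 0.01 of a read) were whole multiples of the worth of 1 read, so reads could be recovered. A count of 0 allows up to 3 reads, or 0.151 to 0.278 CPM by library (counting error only). Every pair of libraries within a group differed beyond sampling noise (lowest mean chi-square per gene 11.4). Identifiers were named through GENCODE M21 (35555 matched).

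Genes averaging 0.5 CPM or more were fitted on log2(CPM + 0.5), a scale that understates changes of low genes, with limma 3.58.1 in R 4.3.3 (eBayes with a trend). The fit was tested on simulated counts. An exact two-sided permutation test over livers was run for single genes. The alternatives were pseudocounts, filters, scalings, array weights, a fit with no trend, a replicate block, each library left out, voom and, added after the data were seen, edgeR 4.0.16 and DESeq2 1.42.0 on recovered reads. The 10 genes and all lists were chosen with earlier results of these data known. All 10 are named, as are from each list the genes past both thresholds (up to 5) or else up to 3 with the smallest p, and the 3 genes most like Saa1, Orm2, Lcn2 and Socs3. The labels number the mice but name no cages or days, so p-values measure the spread between these livers.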

Additional observations from a re-analysis of the deposited data

Results flagged for a closer look

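With 92 groups of livers checked for a single liver far from the others, 5 were found. The 95% critical value of Dixon's test was used, which by its construction marks about 1 group in 20 by chance, and 3 of the 5 were FSH liver 2. FSH liver 2 was far below the other FSH livers for Saa1 (24.0 CPM, others 55.3 to 75.0), for Saa2 (17.2 CPM, others 38.3 to 47.5) and for Hamp2 (675.5 CPM, others 1453 to 1797). FSH liver 4 was far above the others for the endothelial gene Cdh5 (17.6 CPM, others 10.1 to 11.8), and FSH liver 6 far below them for Nr3c1 (67.1 CPM, others 79.8 to 83.7).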

How the results depend on the processing

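On the adjusted p alone, 1350 genes were called in place of 233, 5 of the acute-phase genes in place of 3, 9 of the other positive acute-phase genes in place of 3 and 1 of the negative ones in place of 0. DESeq2 called 5 of the other positive genes. In the fits that each left out a liver, the counts were 198 to 273 over all genes, 2 to 3, 1 to 5 and 0 to 0. The other positive list had 1 gene called without FSH liver 1, 2 or 3 or saline liver 2 or 4 and 5 without saline liver 6. With the replicate number as a block, which does not pair the livers (correlations of deviations -0.07 to 0.36, and 1 of 5 livers closest to its own number), 251 genes, 3 acute-phase, 3 other positive and 0 negative genes were called. Lbp was not among the other positive genes called with the block (-0.99). No FSH liver carries the number 5, and the Saa1 estimate with the block was that of the fit without saline liver 5 (-1.43). Signs turned for Socs3 with voom (0.0113), for Hbb-bs (0.0411) and Hbb-bt (0.0224) with array weights and for S100a9 (0.0185) with the block. Leaving out a liver turned signs within these ranges: Socs3 -0.150 to 0.178, Orm3 -0.345 to 0.0725, Csf3r -0.140 to 0.252, Hbb-bs -0.179 to 0.0848, Hbb-bt -0.187 to 0.0522 and S100a9 -0.218 to 0.0185. Saa1 and Lcn2 passed both thresholds in 23 of 23 alternatives and Saa2 in 22. The cause of these shifts was not tested. Genes near 1 CPM rest on few reads.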
